A study of Mus musculus with 6 samples.

Results

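The 10 RNA-binding proteins described here, Esrp1, Esrp2, Rbfox2, Mbnl1, Mbnl2, Mbnl3, Ptbp1, Ptbp3, Celf1 and Qk, are regulators of alternative splicing whose balance differs between epithelial and mesenchymal cells. They were chosen by name as a list of known splicing regulators, with earlier results of these data known. Their gene identifiers were looked up in a raw count table of 52636 mouse genes. All 10 had counts and passed the filter on low counts, among 12284 genes that did. RNA was sequenced from 3 biological replicates of J110 cells and 3 of SSM3 cells, both mouse mammary tumour lines grown in culture. J110 came from tumours of transgenic mice that express an AIB1 (Ncoa3) cDNA from the MMTV-LTR, a viral promoter used to drive expression in the mammary epithelium. SSM3 came from mammary tumours of 129SvEv mice. The labels name no treatment and no age of the mice of origin. Both media held insulin and hydrocortisone, in different amounts of serum and under different CO2 levels, and that of SSM3 also held transferrin and β-mercaptoethanol. Each model is represented by 1 line, so the genotype, the line and the culture conditions cannot be told apart.

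The splicing regulators bind short motifs in pre-mRNA and decide whether a nearby exon is kept or skipped. Esrp1 and Esrp2 are largely restricted to epithelial cells, where they promote the epithelial forms of receptors and cell junction proteins such as Fgfr2, Cd44 and Ctnnd1. Rbfox2, Mbnl1 and Qk promote many of the forms found in mesenchymal cells, while Ptbp and Celf proteins act in most cell types. The libraries hold 1 short read near the 3′ end of each captured transcript. They measure how much mRNA of each regulator was present and not which exons were spliced, and no splice form was measured here. Since each transcript gives about 1 read whatever its length, counts of different genes were compared without a length correction. Internal priming and unequal 3′ ends could still weigh on such comparisons, which was not tested.

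Total counts ran from 4200785 to 5416305 per library, and 1 count corresponded to between 0.193 and 0.223 CPM (counts scaled to a library of fixed size) after TMM normalisation. Fold changes are those of SSM3 over J110, on the log2 scale of edgeR's quasi-likelihood fit, with p-values adjusted over all 12284 genes by the Benjamini-Hochberg method. Such a p measures the spread between the 3 replicates of each line. The gene of the transgene did not tell the lines apart, since Ncoa3 was 1.88-fold higher in SSM3, the line without it, and 3′ reads of the mouse gene need not cover a cDNA transgene. Ncoa3 thus gives no check of the labels. Of 13 markers of blood, endothelial and fibroblast cells, between 7 and 11 were at 0 in each library, and all 13 summed to between 14.5 and 20.2 CPM. Most of this was Csf1r, a macrophage receptor gene with means of 14.3 CPM (J110) and 14.2 CPM (SSM3), and the other 12 summed to at most 3.96 CPM.

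Esrp1 rose and Mbnl1 fell by the most in SSM3. Of the 10 regulators, 5 were higher in SSM3 (Esrp1, Esrp2, Ptbp3, Rbfox2 and Mbnl3), 4 were lower (Mbnl1, Qk, Mbnl2 and Celf1) and 1, Ptbp1, was not called at an adjusted p threshold of 0.05. The share called, 9 of 10, has to be read against a background of 77.9% of all genes tested, made up of 38.6% higher and 39.2% lower in SSM3. Libraries of the 2 lines did not overlap for the same 9 regulators, against 79.6% of all genes (39.4% higher and 40.3% lower). Past a 2-fold change there were 5 regulators, against 43.7% of all genes, and past 4-fold 3 (Esrp1, Esrp2 and Mbnl1), against 21.7%. Each of these counts includes Esrp1, which passed the filter on low counts through SSM3 alone and so had to differ. With a filter of 10 counts in every library, 8 of the 9 regulators left were called, 4 higher and 4 lower. The median size of the log2 fold change was 1.04 for the regulators and 0.84 for all genes. The list as a whole thus lay near the background, and the values of its single members carry the description.

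**Figure D1:**
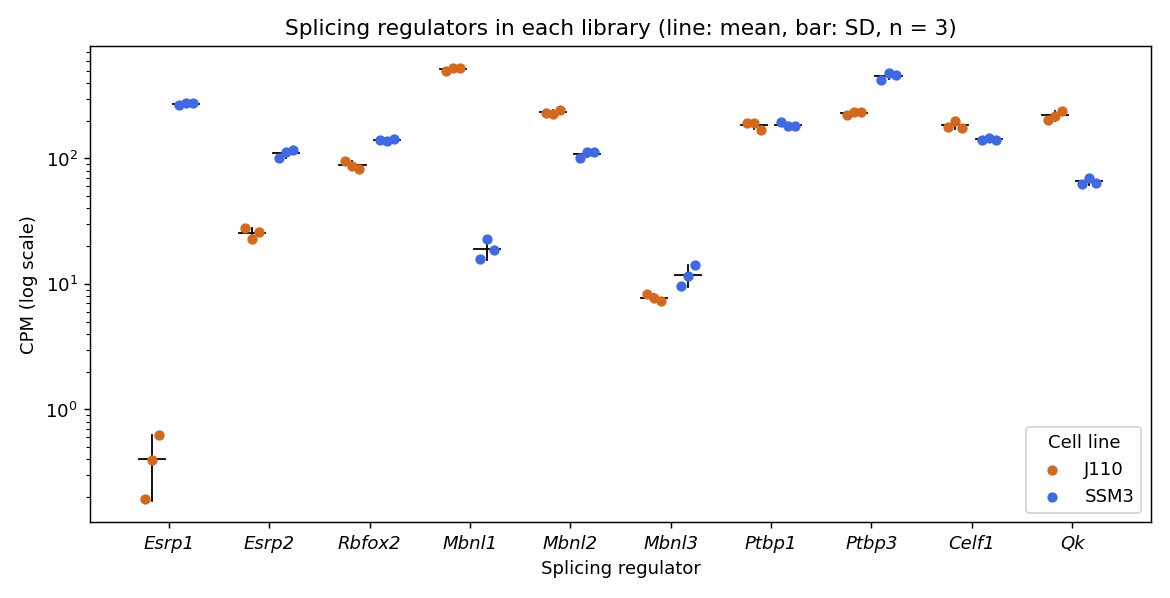
Level of the 10 splicing regulators in every library, in CPM on a log scale, with J110 in orange and SSM3 in blue. Points are libraries, horizontal lines the means and vertical bars the SD of 3 replicates. Esrp1 lies below 1 CPM in J110 and above 260 CPM in SSM3, Mbnl1 goes the other way, and only for Ptbp1 do the libraries of the lines overlap.

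Esrp1 (ENSMUSG00000040728, chr4:11331933-11386783 of mm10, minus strand) was close to undetected in J110. Its counts were 1, 2 and 3 across the J110 libraries, and those of SSM3 gave 1201, 1312 and 1382. The J110 libraries lie at or below 3 counts, so its level there is set by single reads. After scaling, J110 stood at 0.405 ± 0.217 CPM and SSM3 at 274 ± 5.70 CPM (mean ± SD, n = 3). The ratio of the summed counts was 686-fold, with an exact 95% counting interval from 315 to 1871. In the edgeR fit the log2 fold change was 9.33 (SE 0.17, adjusted p = 1.20e-16), and 98.6% of all genes tested changed by less. Esrp1 passed the filter on low counts through SSM3 alone, so it had to differ.

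Other epithelial genes were also scarce in J110 relative to SSM3, to differing extents. Epcam, an epithelial adhesion molecule, had 2, 1 and 7 counts in J110 and 2376, 2404 and 2412 in SSM3. Its log2 fold change was 9.52, and 10.63 without J110 replicate 3. The Esrp1 level of J110 was 0.148% of that of SSM3, beside 0.135% for Epcam and 0.293% for Cdh1, the gene of E-cadherin. For 2 epithelial transcription factors the shares in the 3 J110 libraries were 0%, 0.802% and 1.69% (Grhl2, which shares exons with Gm16136) and 1.59%, 1.63% and 6.89% (Elf3). J110 replicate 3 had the highest share of the 3 for these 2 and for Esrp1 (0.229%), Epcam (0.288%) and Cdh1 (0.425%). Of 2 more such factors, Ovol2 had 0, 0 and 1 counts in J110, a mean share of 0.331%, and Ovol1 had 0 in every J110 library. Whether these few reads came from J110 cells or from another library was not tested.

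Esrp2 (ENSMUSG00000084128, chr8:106130319-106136974, minus strand), the paralogue with largely overlapping targets, was present in both lines. Its levels were 28.0, 22.9 and 25.9 CPM in J110 and 101, 113 and 117 CPM in SSM3. Every SSM3 library was above every J110 library, by 4.30-fold on average (log2 fold change 2.10, SE 0.10, adjusted p = 1.40e-11 by edgeR). Esrp2 shares 219 exonic bases with Nfatc3, a gene on the opposite strand that also rose (log2 fold change 1.05, adjusted p = 3.65e-08 by edgeR). Nfatc3 had between 101% and 239% of the Esrp2 counts in each library. The strand setting of the counting is not given in the sources used here, so reads of the pair may have been shared and the Esrp2 value is uncertain.

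The Esrp family as a whole was 26.0 ± 2.44 CPM in J110 and 384 ± 13.6 CPM in SSM3. In J110, Esrp2 gave 98.4% of the family's counts, and in SSM3 it gave 28.7%. The log2 ratio of Esrp1 to Esrp2 moved from -5.03 ± 0.47 to 1.31 ± 0.09 (SD, n = 3), with the order of the pair turned around. The J110 ratio rests on 1 to 3 Esrp1 counts and on the prior count of 2, and with a prior count of 0.5 the difference of 6.34 became 7.07. Both the share and the ratio carry the uncertainty of the Esrp2 counts that Nfatc3 may share. An exact two-sided permutation test over 3 against 3 libraries gave p = 0.1, the smallest this design allows, for this and for each of the other 7 gene pairs compared (adjusted p = 0.1 over 8 pairs), so none of the pairs can pass the threshold.

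Rbfox2 (ENSMUSG00000033565, chr15:77078990-77307004, minus strand) is often counted as a mesenchymal splicing factor, and it was higher in SSM3. Its levels were 96.2, 87.4 and 82.4 CPM in J110 and 139, 137 and 142 CPM in SSM3, with no overlap. The rise was 1.57-fold (log2 fold change 0.65, SE 0.08, adjusted p = 2.51e-06 by edgeR), while 40.3% of all genes changed by less. Rbfox2 shares no exon with another gene. Its paralogues do not add to it. Rbfox1, a factor of nerve and muscle, had 0, 2 and 2 counts in J110 and none in SSM3, and Rbfox3, the neuronal antigen NeuN, had none in any library.

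Ptbp1 (ENSMUSG00000006498, chr10:79854427-79864771, plus strand), the polypyrimidine tract-binding protein that mostly represses exons, was the regulator that was not called. It had 193, 191 and 170 CPM in J110 and 194, 182 and 181 CPM in SSM3, and the libraries overlapped. The log2 fold change was 0.0090 (SE 0.077, adjusted p = 0.919 by edgeR), with a 95% interval from -0.16 to 0.17, that is from 10.2% lower to 12.8% higher. With library size in place of TMM scaling it was 0.18 (adjusted p = 0.0517). Gm17134, an antisense gene that shares 437 exonic bases with Ptbp1, had between 97.7% and 98.8% of its counts in each library, so the reads of the pair cannot be told apart and the Ptbp1 value is uncertain.

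Ptbp3 (ENSMUSG00000028382, chr4:59471868-59549364, minus strand), a paralogue of Ptbp1 with the same domain layout, rose. It went from 220, 236 and 237 CPM in J110 to 426, 484 and 460 CPM in SSM3. That is a 1.98-fold difference (log2 fold change 0.98, SE 0.07, adjusted p = 2.59e-09 by edgeR), and the lowest SSM3 library was well above the highest of J110. Ptbp2, the form of developing neurons, was low and went the other way, from 13.7 ± 0.86 CPM to 6.82 ± 0.07 CPM (log2 fold change -0.998, adjusted p = 0.00013 by edgeR). The family total was 429 ± 9.73 CPM in J110 and 649 ± 23.2 CPM in SSM3 (exact permutation p = 0.1, the smallest possible), and the part of it given by Ptbp3 went from 53.8% to 70.3%. The total and the share include Ptbp1, so they carry the uncertainty of the counts that Gm17134 may share.

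Mbnl1 (ENSMUSG00000027763, chr3:60472830-60629750, plus strand) encodes muscleblind-like 1, the protein that expanded CUG repeats trap in myotonic dystrophy and that favours differentiated splice forms in many tissues. It fell more than any other regulator of the 10. It had 494, 524 and 522 CPM in J110, the highest mean of the 10 in that line, and 15.8, 22.9 and 18.7 CPM in SSM3, where Mbnl3 alone was lower. The lines were far apart, with a 26.7-fold lower level in SSM3 (log2 fold change -4.74, SE 0.11, adjusted p = 8.58e-16 by edgeR), and 90.1% of genes changed by less. Mbnl1 shares no exon with another gene. With 71, 108 and 94 counts in SSM3, what was left was 3.73% of the J110 level. Vim, the mesenchymal intermediate filament gene, was left at 0.187% by the same measure and from 0.0542% to 0.359% in single libraries.

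RefSeq places 2 starts of Mbnl1 in GRCm38.p6, and the 300 bases around each (250 before and 50 after the start) are shown because Mbnl1 is the regulator that fell most. Capitals mark the CpG dinucleotides, where DNA methylation takes place. The first window is chr3:60472580-60472879 and the second, inside the gene, is chr3:60500929-60501228, both on the plus strand.
Mbnl1 first start: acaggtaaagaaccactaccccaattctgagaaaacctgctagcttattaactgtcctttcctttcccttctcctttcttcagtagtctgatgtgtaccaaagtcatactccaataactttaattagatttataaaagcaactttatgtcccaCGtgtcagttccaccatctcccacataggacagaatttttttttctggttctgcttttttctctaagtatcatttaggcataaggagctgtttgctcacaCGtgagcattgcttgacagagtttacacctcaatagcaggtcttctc
Mbnl1 second start: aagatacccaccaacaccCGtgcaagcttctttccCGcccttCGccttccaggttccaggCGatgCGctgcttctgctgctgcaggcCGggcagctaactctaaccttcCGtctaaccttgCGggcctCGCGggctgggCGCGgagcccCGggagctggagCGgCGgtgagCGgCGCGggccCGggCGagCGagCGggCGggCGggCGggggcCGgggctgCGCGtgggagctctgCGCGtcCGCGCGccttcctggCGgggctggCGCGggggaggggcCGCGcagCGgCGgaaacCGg
The first window holds 2 CpG and 39.3% G and C, and the second 41 CpG and 75% G and C. Of 32851 RefSeq promoter windows of this length, 14.1% hold fewer CpG than the first and 96.5% fewer than the second. Reads at the 3′ end do not show which start was used, and DNA methylation was not measured here.

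Mbnl2 (ENSMUSG00000022139, chr14:120275669-120431697, plus strand), which can stand in for Mbnl1 on many exons, also fell. It had 228, 227 and 244 CPM in J110 and 102, 113 and 112 CPM in SSM3. The libraries did not overlap, and the level was 2.14-fold lower in SSM3 (log2 fold change -1.10, SE 0.08, adjusted p = 1.69e-09 by edgeR). Mbnl3 (ENSMUSG00000036109, chrX:51117269-51206532, minus strand), an X-linked form best known from muscle precursors and placenta, was the least abundant regulator in SSM3. It had 43, 39 and 35 counts in J110 and 43, 55 and 71 in SSM3, or 8.29, 7.71 and 7.30 CPM against 9.58, 11.7 and 14.1 CPM. The log2 fold change of 0.60 (SE 0.21, adjusted p = 0.0134 by edgeR) rests on SSM3 replicate 3. Without that library it was 0.45 with an adjusted p of 0.0781.

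The 3 muscleblind genes together reached 754 ± 21.5 CPM in J110 against 140 ± 11.3 CPM in SSM3, a 5.40-fold lower sum (exact permutation p = 0.1, the smallest possible). Mbnl1 gave 68.1% of the family's counts in J110 and 13.6% in SSM3, while Mbnl2 went from 30.9% to 78.0% and Mbnl3 from 1.03% to 8.40%. The log2 ratio of Mbnl1 to Mbnl2 moved from 1.14 ± 0.06 to -2.50 ± 0.19, so Mbnl1 led in every J110 library and Mbnl2 in every SSM3 library.

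**Figure D2:**
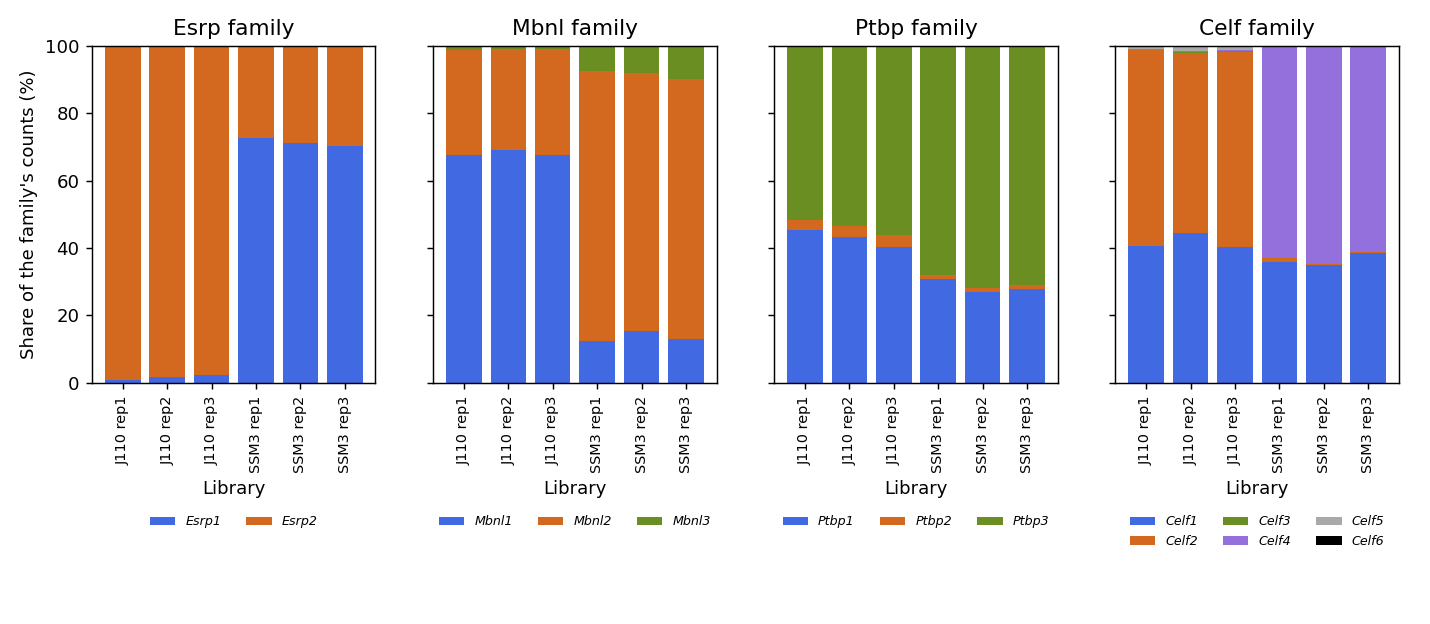
Share of each family's counts given by each member, in percent, in the 6 libraries (bars). In J110 the Esrp bars are nearly all Esrp2 and the Mbnl bars mostly Mbnl1, whereas in SSM3 Esrp1 and Mbnl2 take over. The Esrp and Ptbp shares are uncertain, since reads of Esrp2 and Ptbp1 may be shared with overlapping genes. In the Celf family, Celf1 keeps 41.9% in J110 and 36.5% in SSM3 while Celf2 and Celf4 change places.

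Celf1 (ENSMUSG00000005506, chr2:90940382-91019497, plus strand), a CUG-binding protein that opposes muscleblind proteins on many exons of heart and muscle and also speeds mRNA decay, was a little lower in SSM3. Its levels were 177, 198 and 176 CPM in J110 and 140, 146 and 141 CPM in SSM3. The libraries did not overlap. The level was 1.29-fold lower (log2 fold change -0.37, SE 0.08, adjusted p = 0.000385 by edgeR), and 24.4% of genes changed by less. With library size in place of TMM, the log2 fold change was -0.19.

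Other Celf genes changed by more. Celf2, a paralogue of brain, heart and blood cells, had 1320, 1197 and 1204 counts in J110, while SSM3 kept 17, 6 and 1. Its log2 fold change was -7.17 (SE 0.24, adjusted p = 9.72e-14 by edgeR). It was -8.37 without SSM3 replicate 1, -6.61 without SSM3 replicate 3 and -7.77 with limma-voom. Celf4, a mainly neuronal paralogue, had 4, 10 and 7 counts in J110 and 1097, 1277 and 1121 in SSM3 (log2 fold change 7.43, SE 0.17, adjusted p = 1.18e-15 by edgeR). Both passed the filter on low counts only through the line where they were high, Celf2 through J110 and Celf4 through SSM3, so each had to differ. The total of the 6 Celf genes was nonetheless 439 ± 4.88 CPM in J110 and 390 ± 27.2 CPM in SSM3, a ratio of 0.889. Celf2 gave 56.4% of it in J110 and 0.444% in SSM3, and Celf4 0.319% and 63.0%.

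Qk (ENSMUSG00000062078, chr17:10202601-10319854, minus strand) encodes Quaking, which drives splice forms and circular RNAs of mesenchymal cells. Its mRNA is a known target of the miR-200 family, microRNAs of epithelial cells that pair through bases 2 to 8, the seed. Those mature sequences from RefSeq (GRCm38.p6) are shown with the seed in capitals, and the 6 matching sites follow, because Qk holds more of them than any other of the 10 regulators, though its 3′ UTR is also the longest. miR-200b, miR-200c and miR-429 share 1 seed, and miR-141 and miR-200a the other.
mmu-miR-200b-3p: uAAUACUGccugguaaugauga
mmu-miR-200c-3p: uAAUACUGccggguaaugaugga
mmu-miR-429-3p: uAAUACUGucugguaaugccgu
mmu-miR-141-3p: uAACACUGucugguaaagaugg
mmu-miR-200a-3p: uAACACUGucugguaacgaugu
In the longest annotated Qk 3′ UTR, of 7014 bases, the letters CAGTATT, which pair with the first seed, occur 3 times, and CAGTGTT, which pair with the second, also 3 times. Each site is printed with 12 bases before and 5 after it, in the order of the mRNA, the paired letters in capitals, all on the minus strand of mm10.
Qk chr17:10208160-10208183: tattaccgtcttCAGTGTTagccc
Qk chr17:10207846-10207869: aagcccgcatcaCAGTGTTcagtg
Qk chr17:10207332-10207355: aacaaacagtacCAGTATTtgatc
Qk chr17:10207173-10207196: aaacttagttgaCAGTGTTttgag
Qk chr17:10207112-10207135: tgccttggttctCAGTATTatcac
Qk chr17:10207040-10207063: cttttttcctgaCAGTATTatgta
Of the 254 tested genes whose 3′ UTR was within 20% of this length, 53.9% held CAGTATT at least once and 7.09% at least 3 times. For CAGTGTT these shares were 70.1% and 13%. Per kilobase Qk was not the richest of the 10, with 0.428 of each site. Esrp1, which was higher in SSM3, held 0.652 of each, and Ptbp1 0.669 of CAGTATT. Only the mRNA strand was searched. A match is a string of letters and small RNAs were not measured here.

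Qk was lower in SSM3. It had 201, 219 and 240 CPM in J110 and 62.6, 70.5 and 63.9 CPM in SSM3, with a wide gap between the lines. The level was 3.35-fold lower (log2 fold change -1.74, SE 0.09, adjusted p = 2.84e-11 by edgeR), and 75% of genes changed by less. Unlike Esrp1 in J110, Qk kept 29.8% of its level in the line where it was lower. The log2 ratio of Esrp1 to Qk went from -8.11 ± 0.26 in J110 to 2.05 ± 0.07 in SSM3, the largest difference of the 8 pairs, and that of Esrp1 to Rbfox2 from -6.80 ± 0.50 to 0.97 ± 0.05. With a prior count of 0.5 these differences went from 10.2 to 10.9 and from 7.78 to 8.52.

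**Figure D3:**
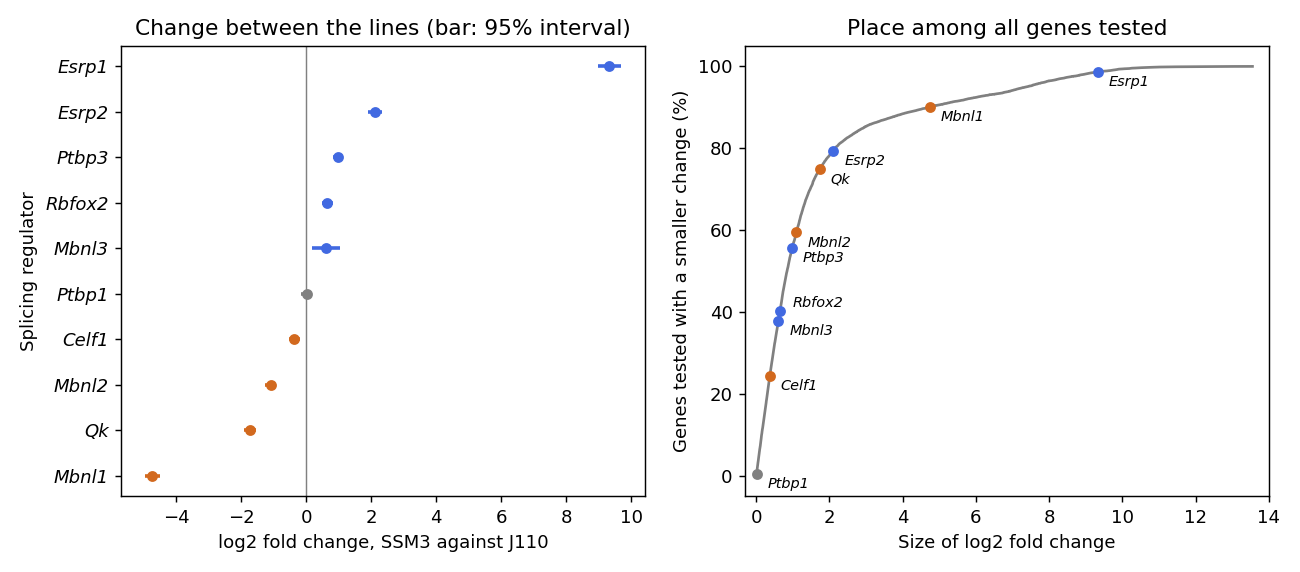
Left, log2 fold change of SSM3 over J110 with its 95% interval for each regulator, in blue where higher in SSM3, orange where lower and grey where not called. Right, the size of each change against the percentage of the 12284 genes tested that changed by less (grey line, all genes). Esrp1 and Mbnl1 lie above 90% of genes, Celf1, Mbnl3 and Rbfox2 below 41%.

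By mean level, the order in J110 ran from Mbnl1 (513 ± 16.4 CPM) to Mbnl2, Ptbp3, Qk, Ptbp1, Celf1, Rbfox2, Esrp2, Mbnl3 and Esrp1. Among them, the neighbours Mbnl2 (233 ± 9.49 CPM), Ptbp3 (231 ± 9.16 CPM) and Qk (220 ± 19.8 CPM) did not differ beyond their spread, nor did Ptbp1 and Celf1 (both 184 CPM). In SSM3 Ptbp3 led with 457 ± 29.3 CPM, followed by Esrp1, Ptbp1, Celf1, Rbfox2, Esrp2, Mbnl2, Qk, Mbnl1 and Mbnl3. There, Celf1 (142 ± 3.28 CPM) and Rbfox2 (139 ± 2.57 CPM), and Esrp2 (110 ± 8.49 CPM) and Mbnl2 (109 ± 6.46 CPM), were within their spread. Esrp1 thus went from the last place to the second, and Mbnl1 from the first to the ninth. The places of Ptbp1 and Esrp2, and so the ranks around them, carry the uncertainty of counts that Gm17134 and Nfatc3 may share.

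Other splicing genes set these values in context. Of 22 other regulators, 19 were tested, and 4 were higher, 11 lower and 4 not called, where 38.6% of all genes were higher and 39.2% lower, with a median log2 fold change of -0.38. The largest rise was that of Rbm47, an RNA-binding protein of epithelial cells, with 24, 14 and 17 counts in J110 and 276, 278 and 251 in SSM3 (log2 fold change 3.95, SE 0.18, adjusted p = 4.44e-12 by edgeR). Rbm38, a regulator of differentiation and a p53 target, fell most, with 100, 105 and 76 counts in J110 and 41, 19 and 18 in SSM3 (log2 fold change -1.76, SE 0.26, adjusted p = 1.32e-05 by edgeR). Leaving out single libraries, its log2 fold change ran from -2.28 to -1.51. Gm14453 on the opposite strand shares 227 exonic bases with Rbm38 and had between 5.26% and 26.7% of its counts in each library. Hnrnpm, known for working against Esrp1 on Cd44 exons, was not called (log2 fold change -0.083, adjusted p = 0.315 by edgeR).

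Of the 20 core spliceosome genes, 5 were higher, 5 lower and 10 not called, so that 10 of 20 were called against 77.9% of all genes. With library size in place of TMM, 10 were higher and 4 lower. Their median log2 fold change was 0.041, and 4 passed the threshold with more than a 2-fold change (Snrpd2 higher, Snrpf, Cdc5l and Sf3b1 lower), against 43.7% of all genes. Snrpd2, a subunit of the Sm ring, rose most (log2 fold change 1.14, SE 0.08). Snrpf, of the same ring, fell most, with 391, 323 and 332 counts in J110 and 75, 49 and 9 in SSM3. Its log2 fold change of -2.88 became -3.53 without SSM3 replicate 1, and Ccdc38 on the opposite strand, which shares 567 exonic bases, carried between 98.0% and 122% of its counts, so the Snrpf value is uncertain.

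Genes whose exons the Esrp, Rbfox2 or Qk proteins are known to switch were counted as a list too. Of 12, 4 were higher, 7 lower and 1 not called, against 77.9% of all genes called, with a median log2 fold change of -0.62. Fgfr2, the receptor with an epithelial and a mesenchymal exon, had 5, 8 and 9 counts in J110 and 562, 618 and 586 in SSM3 (log2 fold change 6.38, SE 0.16, adjusted p = 2.92e-15 by edgeR). It shares 314 exonic bases with Ctbp2 on the same strand, which had 1179, 1141 and 947 counts in J110 and 377, 388 and 389 in SSM3, so the Fgfr2 value is uncertain. Fgfr2 also passed the filter only through SSM3 and had to differ, and with a filter of 10 counts in every library 9 of the 10 genes left were called. Cd44, the hyaluronan receptor, had 3703, 3417 and 3778 counts in J110 and 58, 51 and 63 in SSM3 (log2 fold change -5.90, SE 0.11, adjusted p = 9.35e-17 by edgeR). Each of these 2 genes was scarce in 1 of the lines, and exon use was measured for neither.

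All 12 tested genes of a list of 14 epithelial and mesenchymal genes were called, 6 higher and 6 lower, each by more than 4-fold, where 77.9% of all genes were called and 21.7% were called past 4-fold. Of these 12, 9 had under 10 counts in at least 1 library and passed the filter through the line where they were high. The filter thus favoured a difference in them, without setting its size. Zeb1, a repressor of epithelial genes, had 132, 123 and 166 counts in J110 and 0, 1 and 0 in SSM3, a ratio of 398 with an exact counting interval from 71.1 to 15770. Its single SSM3 count was in replicate 2. Vim had a log2 fold change of -9.07, and -9.97 without SSM3 replicate 2. Where only these lines are compared, a called gene goes with either Epcam or Vim, so such a placing was fixed in advance. Esrp1, Esrp2, Rbfox2, Ptbp3 and Mbnl3 were higher in the line that had Epcam. Mbnl1, Qk, Mbnl2 and Celf1 were higher in the line with high Vim and Zeb1.

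**Figure D4:**
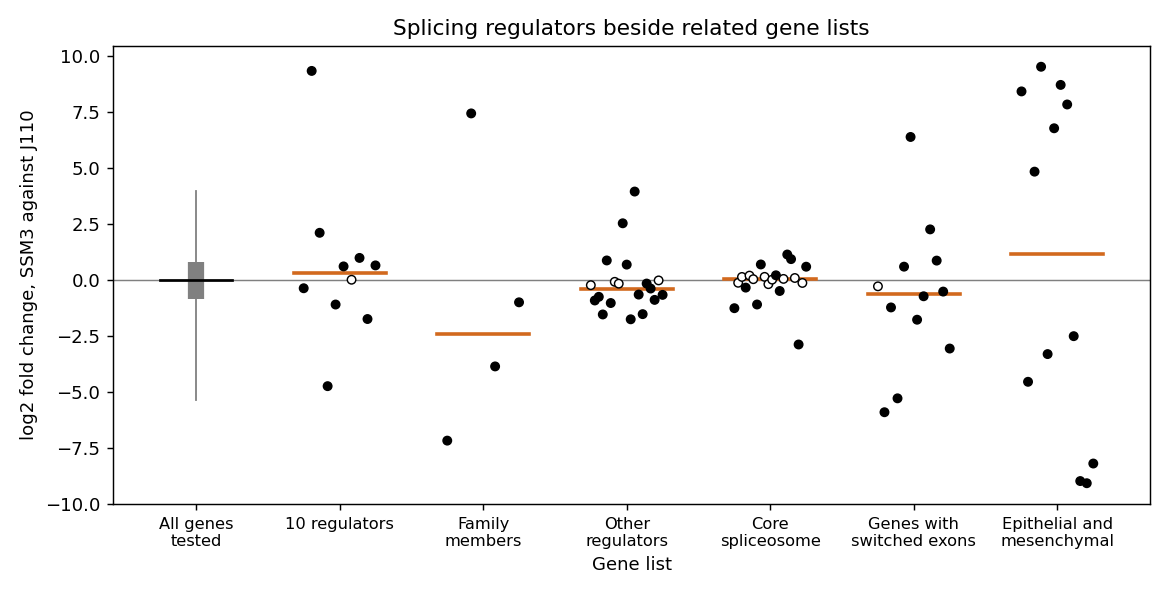
log2 fold change of SSM3 over J110 for the 10 splicing regulators and 5 related gene lists. Filled points passed the threshold, open points did not, and orange lines are medians. For all genes tested the box spans the 25th to the 75th percentile and the thin line the 5th to the 95th. Of the 20 core spliceosome genes 10 are open points, and the epithelial and mesenchymal genes fall into a high and a low set.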

How the data were processed

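Libraries were made with the QuantSeq 3′ kit from 3 biological replicates of each line and sequenced as single end reads. Per the labels and the submitters' processing notes, the authors used bcl2fastq 2.17.1.14, cutadapt 2.1, HISAT2 2.0.4 with mm10 and featureCounts of Subread 2.0.0, and deposited raw counts per gene with no normalisation. The strand setting and the handling of reads on overlapping genes are not given in the sources used here. Of 52636 genes, 99.6% matched a symbol in GENCODE vM21 (GRCm38, equal to mm10), and 30044 had no count.

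From the counts, genes were filtered with filterByExpr (minimum count 10), scaled with TMM (factors 0.920 to 1.07) and fitted in edgeR 4.0.16 (quasi-likelihood, R 4.3.3). The biological coefficient of variation was 8.30%. The SE is the log2 fold change divided by the square root of F. A line with at most 3 counts in each library is compared by the ratio of summed counts with an exact interval, which covers counting error only. Ratios of gene pairs used log2 CPM with a prior count of 2. Replicates of a line differed by more than sampling noise (chi-square per degree of freedom 2.27 to 5.85).

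The regulators and the gene lists were chosen with earlier results of these data known. Named genes outside the 10 are those with the largest rise and fall past the threshold in each list, plus Zeb1, Epcam and Vim. Celf4, Celf2, Rbm47, Rbm38, Snrpd2, Snrpf, Fgfr2 and Cd44 came by that rule. Cdh1, Grhl2, Elf3, Ovol1, Ovol2, Hnrnpm, Cdc5l, Sf3b1, Ptbp2, Rbfox1, Rbfox3, Csf1r, Ncoa3 and the genes that share exons were named after their values were seen. Family sums and shares, miR-200 sites and promoter windows were also added then. Protein sequences were not used here, and a detail of the mice of origin is not reported here. The 17 alternatives covered DESeq2 1.42.0, limma-voom (limma 3.58.1), scalings, filters, depth, a 2-fold threshold, a replicate block and leaving out libraries.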

Additional observations from a re-analysis of the deposited data

How the results depend on the processing

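Under 17 alternatives the 10 regulators gave 169 values, of which 162 kept their side of the threshold and 7 lost the call. No called regulator changed direction, and Ptbp1, not called under any alternative, ranged from -0.057 to 0.18 on the log2 scale. Of the 7, 5 came from testing for a change above 2-fold, which called 4 regulators (2 higher, 2 lower), 4272 genes in all, 5 other regulators, 3 core spliceosome genes and 6 genes with switched exons. The other 2 were Mbnl3 without SSM3 replicate 3 and without both J110 replicate 3 and SSM3 replicate 2 (adjusted p = 0.0701 by edgeR, log2 fold change 0.58). With DESeq2 its adjusted p was 0.0462, and 8948 genes were called. A filter of 10 counts in every library left out Esrp1, 3 of the tested paralogues (1 called) and 9 epithelial or mesenchymal genes (3 called), and a filter of 1 count in any library called 3 markers of other cell types. A prior count of 0.5 moved the log2 ratio differences with Esrp1 to 7.07 (Esrp2), 8.52 (Rbfox2) and 10.9 (Qk). With library size only, Srsf3 reversed to 0.015 (adjusted p = 0.834) and the median over all genes was 0.16 in place of -0.014. The replicate number as a block called 9481 genes and 9 regulators. The labels state no pairing of libraries with the same number. Same-numbered libraries deviated together with r of 0.012, 0.015 and 0.027, low values that were each the highest for their library. Leaving out each library in turn called 8 to 9 regulators, 4 to 5 of them higher. Thinned to the smallest library, Mbnl3 kept its call (adjusted p = 0.0235). Depth limits Esrp1 in J110, with 6 counts in all.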
